A study of Mus musculus with 24 samples.

Results

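The Wnt members described here are the Wnt ligands, the Frizzled receptors (Fzd) with the co-receptors Lrp5 and Lrp6, the secreted inhibitors of the Sfrp and Dkk families with Frzb, and 3 genes that act inside the cell, Axin2, Lef1 and Tcf7. They were chosen by gene symbol in the array annotation, with earlier results of these data known. 57 of the 25697 probes on the array, for 41 of its 18120 symbols, matched. 23 of these probes, for 18 genes, were detected on all 3 arrays of at least 1 group and were tested among 9591 genes.

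RNA came from day 6 embryoid bodies, clumps of differentiating mouse embryonic stem cells, here of the Ainv15 line. ICN1, the intracellular domain of the receptor Notch1, was switched on with doxycycline from day 3 to day 5 in the induced groups and was not induced in the others. Cells of both conditions were sorted into fractions that the labels call CD41 sp, VE sp, DP and DN, without spelling the names out, and each of the 8 groups has 3 arrays of total RNA. All groups came from 1 engineered line, doxycycline and ICN1 cannot be told apart, and the labels do not say what a replicate was. The p-values therefore reflect only how far these arrays spread, which may be technical.

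Wnt proteins are secreted signals that bind Frizzled receptors, and in the canonical branch they engage Lrp5 or Lrp6 as well, which stops the Axin complex from degrading beta-catenin and lets it act with Tcf and Lef factors on DNA. Sfrp proteins and Frzb bind Wnts outside the cell, and most Dkk proteins block the co-receptors. In the early embryo and in embryoid bodies this signalling drives primitive streak and mesoderm formation, and its later level affects blood and vessel fates, where Notch also acts.

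Levels below are log2 intensities after background correction and quantile normalization, in the order of arrays 1, 2 and 3. An offset of 16 sets a floor near 4, so differences of dim probes are compressed, and levels of different genes are not compared because each probe has its own response. The mean raw intensity of the arrays ran from 165 to 656, and 41.8% to 51.3% of probes were detected (detection p under 0.05). The dimmest array was non-induced VE sp 3, and the 4 induced arrays numbered 2 (198 to 314) were dimmer than the 4 non-induced arrays numbered 2 (425 to 474). The sort was checked with Itga2b, which encodes CD41 and exceeded its DN level by 3.09 in CD41 sp, 1.62 in VE sp and 3.36 in DP (log2), and with Cdh5, which encodes VE-cadherin and exceeded it by 5.80 in VE sp and 5.07 in DP. Cdh5 was undetected throughout CD41 sp and DN. Of 6 Notch-responsive genes 3 were called higher on average over the fractions, 3 in DN, 1 in CD41 sp and none in VE sp or DP. Hey1 was higher by 2.50 ± 0.30 (log2, SE) and Nrarp by 1.43 ± 0.17 on average. The summed intensity of the 6 was 3322 to 5119 in non-induced and 7263 to 10415 in induced VE sp. In the same order it was 1252 to 2029 and 1886 to 3895 in DP, 332 to 581 and 1237 to 2379 in CD41 sp, and 600 to 1041 and 2183 to 5607 in DN.

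Few of the ligands gave a signal. Of the 19 Wnt symbols, 4 were tested, Wnt2, Wnt4, Wnt5a and Wnt5b, against 6 of 8 Frizzleds, 4 of 5 Sfrp and Frzb symbols and 1 of 4 Dkk symbols. The 23 symbols not tested were Wnt1, Wnt2b, Wnt3, Wnt3a, Wnt6, Wnt7a, Wnt7b, Wnt8a, Wnt8b, Wnt9a, Wnt9b, Wnt10a, Wnt10b, Wnt11, Wnt16, Fzd1, Fzd4, Lrp6, Dkk1, Dkk2, Dkk4, Sfrp4 and Lef1, and 10 of them were not detected on any of the 24 arrays. Fzd4 was the exception in that its brighter probe was detected on 16 arrays, 2 in each group, with no group complete, whereas none of the other symbols not tested exceeded 5 arrays. Sfrp1 and Fzd10 were detected on all 24 arrays. 6 of the 18 tested genes were complete only in DN groups, namely Wnt2, Wnt4, Fzd3 and Sfrp5 in induced DN alone and Wnt5b and Frzb in both DN groups. Such genes were tested only because a DN group was complete, which favours high values in that group. Where induced DN alone was complete, this bears on the induction comparisons as well as on those between fractions. The main counts of members are therefore also given without these 6 genes, but those with the replicate number as a block are not.

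**Figure D1:**
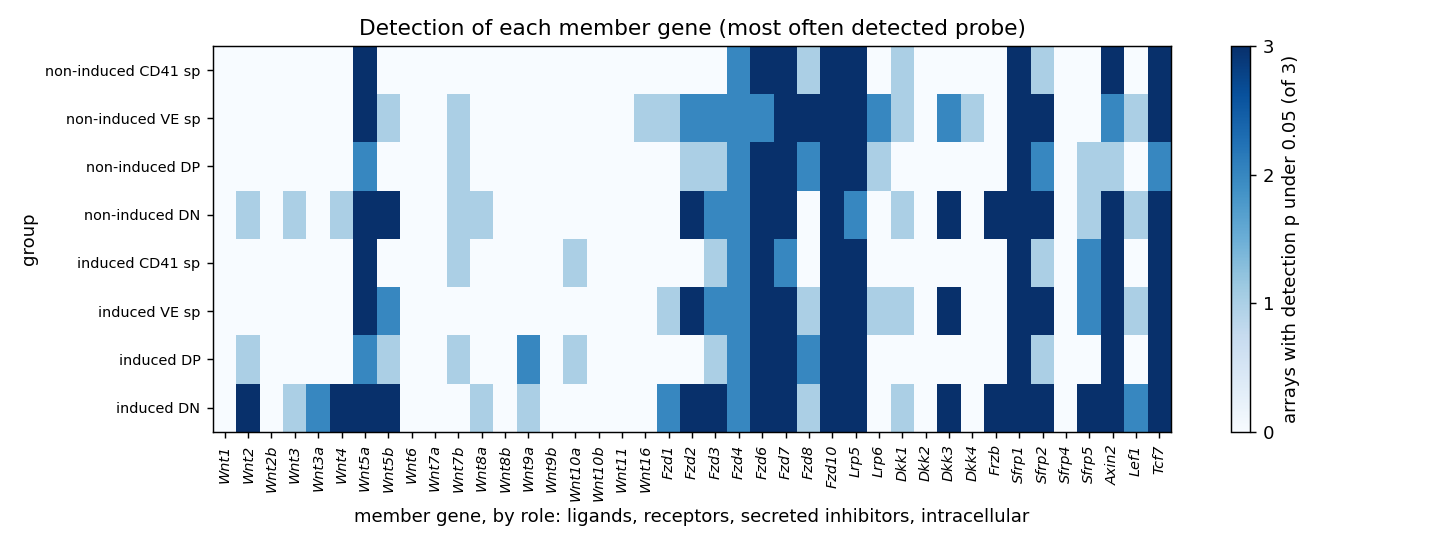
Detection of the 41 member genes (columns, grouped by role) in the 8 groups (rows), coloured by the number of arrays out of 3 with a detection p under 0.05 for the gene's most often detected probe. Most Wnt ligand columns are complete in no group, Fzd4 sits at 2 of 3 in every group, and Wnt2 and Wnt4 are complete only in induced DN.

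The first comparison asks which members changed when ICN1 was induced. 3 of the 18 tested members rose on average over the 4 fractions and none fell (limma, Benjamini-Hochberg adjusted p under 0.05), against 2.97% of all tested genes called and 2.05% called higher. They were Sfrp1, an inhibitor that binds Wnts, Axin2, a negative regulator that is itself switched on by Wnt signalling in many tissues, and the ligand Wnt2. With the replicate number as a block 5 were called, adding Wnt4 and Fzd3, against 12.9% of all genes in that fit. Among the 12 members complete in a group other than DN, 2 were called without the block, Sfrp1 and Axin2. Of the 5 called with the block, Wnt2, Wnt4 and Fzd3 passed the detection filter through induced DN alone, which favours high values there. The median difference of the 18 members was 0.23, beside 0.00 for all genes. This median includes such genes and was not taken without them.

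Sfrp1 showed the largest average change of the members. In DN its levels were 7.77, 7.08 and 8.25 without induction and 9.26, 8.48 and 9.91 with it. Every induced DN array was above every non-induced one. In VE sp they were 5.49, 5.83 and 6.99 without and 6.90, 6.88 and 7.78 with induction, where 2 induced arrays lay just below the highest non-induced array. CD41 sp had 5.43, 5.60 and 5.53 against 6.06, 5.60 and 7.30. DP had 5.34, 5.27 and 5.47 against 6.27, 5.23 and 6.52. In both of these fractions arrays 1 and 3 were higher after induction and array 2 was level. Averaged over the fractions, Sfrp1 rose by 1.01 ± 0.23 (SE; adjusted p = 0.0146), a 2.01-fold change, and it was higher in 10 of 12 pairs of arrays with the same number. The difference within a single fraction was 1.52 ± 0.46 in DN (adjusted p = 0.184) and 1.08 ± 0.46 in VE sp (adjusted p = 0.552). Because arrays with the same number deviated together, a fit with the replicate number as a block was also made, and in it Sfrp1 was called in both DN (adjusted p = 0.00307) and VE sp (adjusted p = 0.0296), where 4.11% and 4.36% of all genes were called. The average call was lost without the arrays numbered 1 (0.96, adjusted p = 0.458) and with the authors' processed values (0.77, adjusted p = 0.0780). The interaction test for a difference among fractions was not passed (adjusted p = 1.00). Bulk values cannot tell more cells with Sfrp1 from more Sfrp1 RNA per cell, and the same holds for every member below.

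Axin2 changed less. Its levels in CD41 sp were 5.32, 5.53 and 5.34 without induction and 6.22, 5.92 and 6.08 with it, and the groups did not overlap. DN likewise separated completely, at 7.66, 7.48 and 7.14 against 7.88, 8.01 and 7.80. VE sp had 6.52, 5.94 and 4.79 against 6.47, 6.30 and 6.12, and DP had 5.28, 4.84 and 5.00 against 5.49, 5.22 and 6.47, so that these fractions overlapped. The average rise was 0.60 ± 0.16 (adjusted p = 0.0479), or 1.51-fold, with 11 of 12 pairs higher. No fraction passed the test alone. The average call was lost when any one of 22 of the 24 arrays was left out (all but non-induced VE sp 1 and induced DP 2), without the arrays of any one number (0.37 to 0.74, adjusted p from 0.153 to 0.262), with median scaling (adjusted p = 0.668), with no background correction (0.37, adjusted p = 0.0524) and with the authors' processed values (0.37, adjusted p = 1.00).

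Wnt2 and Wnt4, both ligands, rose in the DN fraction, where 2 of 18 members were called, against 0.928% of all genes called and 0.730% called higher. Neither is among the 12 members complete outside DN, of which none was called here. Wnt2 in DN stood at 4.97, 4.86 and 4.50 without induction, detected on 1 array, and at 6.04, 6.17 and 6.45 with it, detected on all 3. Induced and non-induced DN arrays were far apart, while all arrays of the other fractions lay between 4.38 and 4.85 and only 1 of them, induced DP 2, was detected. The rise in DN was 1.44 ± 0.16 (adjusted p = 2.53e-05), or 2.72-fold. Wnt2 was the only member whose induction differed among fractions (F test, adjusted p = 0.00335), against 0.146% of all genes. It passed the detection filter through induced DN alone. Of the 12 members complete outside DN none was called in this F test, against 0.120% of the corresponding genes. The average of Wnt2 over fractions, 0.37 ± 0.08 (adjusted p = 0.00808), is mostly the DN value, with 0.02 ± 0.16 in CD41 sp, 0.22 ± 0.16 in DP and -0.20 ± 0.16 in VE sp. The DN call held when any one array was left out, but not with the authors' processed values (0.88, adjusted p = 0.186), or with the DN arrays fitted alone (adjusted p = 0.0798). The average and the difference among fractions were lost without the arrays of any one number (adjusted p from 0.0603 to 0.538).

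Wnt4 had 5.10, 4.88 and 4.72 in non-induced DN, 1 array detected, and 5.73, 5.22 and 6.27 in induced DN, all detected. The groups did not overlap, with array 3 highest in the induced group and lowest in the other. The rise was 0.84 ± 0.20 (adjusted p = 0.0459), or 1.79-fold. It was lost without any one of the 3 non-induced DN arrays or without induced DN 1 or 3 (adjusted p from 0.0628 to 0.313), and it was 0.49 without the arrays numbered 3 and 0.48 with the authors' processed values. A second Wnt4 probe, too dim to be tested, read 4.89, 4.74 and 4.81 against 5.10, 4.83 and 5.63 in the same groups. In the other fractions no array of the first Wnt4 probe was detected. Averaged over fractions Wnt4 was 0.33 ± 0.10 higher (adjusted p = 0.0868), with all 12 pairs higher, and it passed with the replicate block (adjusted p = 0.0187).

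Markers of other cell types moved in DN with induction too. 2 of 5 tested markers of visceral and definitive endoderm were lower there, Ttr by -3.04 and Apoa1 by -1.92 (log2 difference), and their summed intensity ran from 2868 to 8798 in non-induced DN and from 1314 to 2948 in induced DN. None of 7 mesenchyme, 7 erythroid, 5 epithelial and 5 streak or pluripotency markers was called there, and 1 of 8 endothelial markers rose (Esam1, by 1.96 ± 0.38), with Cdh5 not detected on any DN array. The part of such shifts in the changes of Wnt2, Wnt4 and Sfrp1 was not tested.

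**Figure D2:**
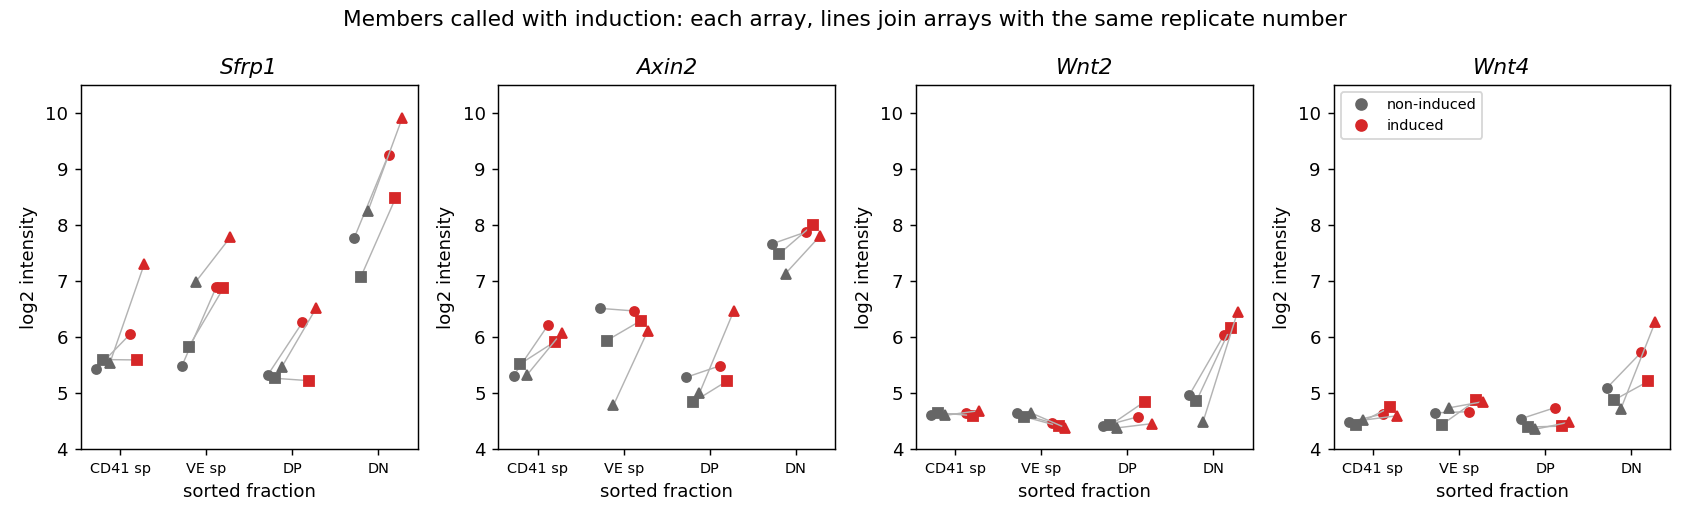
Log2 intensity of Sfrp1, Axin2, Wnt2 and Wnt4 on each array, by sorted fraction, without (grey) and with (red) induction; symbols are arrays 1 (circle), 2 (square) and 3 (triangle), and lines join arrays with the same number. Sfrp1 rises on all 3 lines in VE sp and DN, and Wnt2 leaves the floor in DN only, from 4.50 to 4.97 up to 6.04 to 6.45.

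Within the other fractions no member was called. The share of all genes called was 0.0938% in CD41 sp, 1.14% in VE sp and 0.136% in DP, and 1, 3 and 2 members had an unadjusted p under 0.05 there. Tcf7, a transcription factor that partners beta-catenin, was 0.97 ± 0.31 higher in induced DP (adjusted p = 0.446), at 5.32, 5.58 and 6.74 against 4.98, 4.94 and 4.82. The groups did not overlap, and array 3 supplied most of the difference. A second Tcf7 probe overlapped, at 4.98, 4.43 and 6.62 against 4.90, 4.94 and 4.45. Wnt5a in VE sp went from 5.12, 5.19 and 5.42 to 5.95, 5.79 and 5.89, again without overlap, a difference of 0.63 ± 0.29 (adjusted p = 0.659). Frzb in DN had 6.17, 5.11 and 6.03 without and 5.57, 5.26 and 5.04 with induction, -0.48 ± 0.21 (adjusted p = 0.655), with overlapping groups. Fzd3, a receptor best known for planar polarity in neural tissue, was higher in all 12 pairs but by only 0.23 ± 0.11 (adjusted p = 0.386), which passed with the block (adjusted p = 0.0223). Fzd3 passed the detection filter through induced DN alone, which favours high values there. Its probe was detected on no array of non-induced CD41 sp and on 1 array each of induced CD41 sp and both DP groups. Some of the pairs therefore compare undetected signals. The average differences of the other receptors ran from -0.05 for Fzd7 to 0.19 for Fzd6 (lowest adjusted p = 0.705), and those of the remaining members were -0.09 for Frzb to 0.34 for Dkk3, none called.

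**Figure D3:**
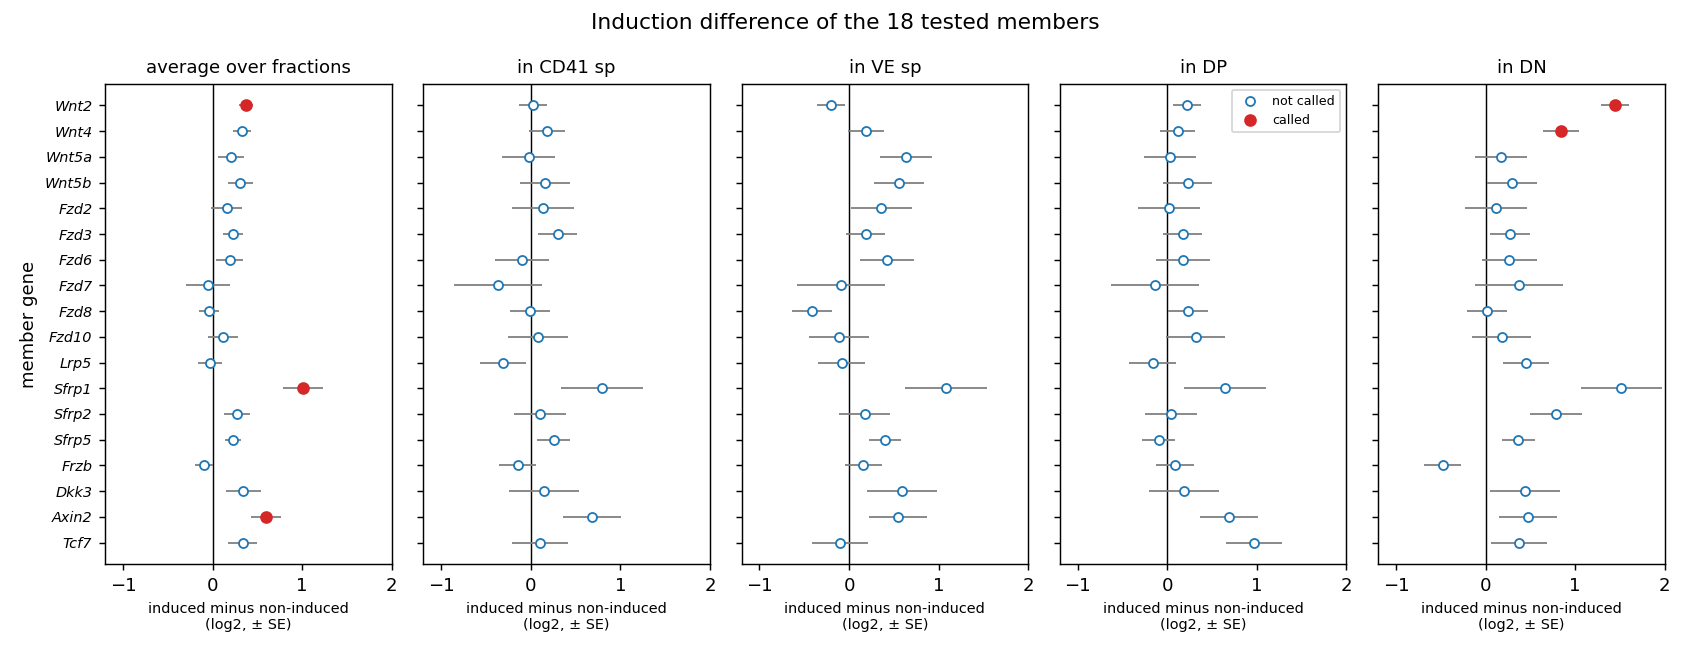
Induced minus non-induced log2 difference of the 18 tested members, averaged over the fractions and in each fraction; bars are limma's SE and filled points are called at an adjusted p under 0.05. Sfrp1 (1.01), Axin2 (0.60) and Wnt2 (0.37) are filled in the average panel, and Wnt2 (1.44) and Wnt4 (0.84) in DN.

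Calls among other genes of the pathway are given by list, beside 2.97% of all genes called on average and 0.928% in DN. None of 7 tested genes for Wnt secretion, R-spondins and co-receptors and none of 14 nuclear effectors passed in any fraction or on average. Of 6 further extracellular and membrane inhibitors 1 rose on average, Tpbg by 0.70 ± 0.18, a membrane glycoprotein that restrains Wnt reception. Of 11 cytoplasmic transducers 2 were lower, Frat1 (-0.53) and Frat2 (-0.56), which bind GSK-3. Of 16 transcripts known as Wnt responsive, Id2 rose by 0.84 ± 0.21 and Mesp1 fell by 0.43 on average, and in DN Tnfrsf19 rose by 0.96 ± 0.19 and Mesp1, an early mesoderm factor, fell by 1.30 there. Of 19 non-canonical receptors and planar polarity genes 2 were called on average, Celsr1 (0.33 ± 0.08) and Gpc3 (-0.60 ± 0.12). Celsr1 also rose in DN by 1.02 ± 0.16, and Gpc3 in VE sp fell by 1.42. The list medians on average over the fractions were -0.09, 0.03, 0.14, 0.01, 0.15 and 0.10 in that order, beside 0.00 for all genes.

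The sequences before the start sites of 3 of the members that rose are shown because they are the DNA on which any direct control by Notch or Wnt factors near the start would be looked for. RefSeq windows (GRCm38.p6, 250 bases before to 50 after the start, 300 in all) were at hand for 10 tested members. Axin2 lies at chr11:108920099-108920398 on the plus strand, Wnt2 at chr6:18030396-18030695 on the minus strand and Wnt4 at chr4:137277385-137277684 on the plus strand. Bases in capitals would mark matches to CTTTGA, the core letters bound by Tcf and Lef factors, or TGGGAA, those bound by the Notch partner RBPJ, searched on both strands, and these 3 windows hold neither.
Axin2: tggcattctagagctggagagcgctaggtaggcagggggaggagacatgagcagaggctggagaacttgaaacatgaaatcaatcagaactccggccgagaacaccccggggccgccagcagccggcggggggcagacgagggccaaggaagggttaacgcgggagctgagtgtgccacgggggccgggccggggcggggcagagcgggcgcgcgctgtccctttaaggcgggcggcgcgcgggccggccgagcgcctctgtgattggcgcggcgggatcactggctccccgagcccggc
Wnt2: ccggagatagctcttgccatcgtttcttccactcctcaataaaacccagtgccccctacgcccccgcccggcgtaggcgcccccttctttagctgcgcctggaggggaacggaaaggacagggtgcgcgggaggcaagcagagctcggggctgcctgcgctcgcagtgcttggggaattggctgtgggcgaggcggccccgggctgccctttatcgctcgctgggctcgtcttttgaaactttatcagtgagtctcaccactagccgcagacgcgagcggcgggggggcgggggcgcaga
Wnt4: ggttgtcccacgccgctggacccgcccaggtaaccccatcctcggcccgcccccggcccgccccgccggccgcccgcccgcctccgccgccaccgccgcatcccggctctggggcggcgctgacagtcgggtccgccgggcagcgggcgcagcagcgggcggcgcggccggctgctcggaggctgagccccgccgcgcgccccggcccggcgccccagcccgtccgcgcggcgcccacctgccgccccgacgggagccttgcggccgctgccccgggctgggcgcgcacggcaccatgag
Of all 32851 windows 5257, or 16%, hold CTTTGA and 8397, or 25.6%, hold TGGGAA on either strand. The 10 members have 13 windows, of which 2 hold the first and 2 the second, in Frzb and Wnt5b only, and the Wnt5b matches lie in different windows. A match is a run of letters and not a bound site, and its absence concerns this window alone.

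The second comparison asks how the members were distributed over the fractions when ICN1 was not induced. 11 of 18 differed among the 4 fractions (F test), against 35.2% of all genes, and 10 of the 12 complete outside DN did so, against 34.7% of the 9193 genes with that property. The strongest by p were Wnt5a, Fzd2, Dkk3, Axin2, Frzb and Fzd10, of which Frzb was complete only in DN groups. Most were highest in DN. Against DN, CD41 sp had 8 members called, all lower (15.6% of all genes called, 8.62% lower), VE sp had 8, of which 6 were lower (24.6% and 12.2%), and DP had 9, of which 8 were lower (22.0% and 10.9%). These comparisons share the 3 DN arrays. Of the 12 members complete outside DN, 6, 5 and 7 were lower than in DN, against 7.24%, 10.7% and 9.33% of the corresponding genes.

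Among the ligands, Wnt5a, which signals mostly through non-canonical routes, stood at 8.60, 8.16 and 8.35 in DN. It read 5.91, 7.42 and 5.90 in CD41 sp, 5.12, 5.19 and 5.42 in VE sp and 5.22, 5.32 and 4.91 in DP. All DN arrays were above all others, and CD41 sp 2 stood apart from its 2 partners. Relative to DN the difference was -3.13 ± 0.29 in VE sp (adjusted p = 4.00e-08), or 8.73-fold, -3.22 ± 0.29 in DP (adjusted p = 2.50e-08), or 9.32-fold, and -1.96 ± 0.29 in CD41 sp (adjusted p = 3.45e-05), or 3.89-fold. Wnt5a was also higher in CD41 sp than in DP, by 1.26 ± 0.29 (adjusted p = 0.00476), and than in VE sp, by 1.17 ± 0.29 (adjusted p = 0.00394). Without CD41 sp 2 these last differences were 0.76 and 0.66, and a second Wnt5a probe gave 0.10 ± 0.30 and 0.22 ± 0.30, neither called. The related ligand Wnt5b, detected on no CD41 sp or DP array and on 1 VE sp array, had a mean of 5.47 in DN and 4.60 in CD41 sp and was at least 1.35-fold higher in DN (adjusted p = 0.0343). That call was lost without any one of the DN arrays or without CD41 sp 2 or 3 (adjusted p from 0.0665 to 0.136). Wnt5b was tested only because the DN groups were complete, which favours high values there. Wnt2 and Wnt4 had non-induced group means of 4.41 to 4.90 and were called in no pair of fractions.

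Of the receptors, Fzd2 and Fzd7 were highest in DN and Fzd10 in the VE sp and DP fractions. Fzd2 had 7.78, 6.62 and 7.17 in DN, 6.05, 5.03 and 4.55 in VE sp, 4.90, 4.43 and 4.38 in DP and 4.40, 4.56 and 4.39 in CD41 sp, where no array was detected. DN did not overlap any other fraction, and VE sp spread over more than 1 unit. Relative to DN, Fzd2 differed by -1.98 ± 0.34 in VE sp (adjusted p = 0.000139) and by -2.62 ± 0.34 in DP (adjusted p = 4.45e-06), and it was at least 4.44-fold lower in CD41 sp (adjusted p = 3.76e-06). Fzd7 averaged 8.14 ± 0.80 (SD, n = 3) in DN, 7.07 ± 0.24 in VE sp, 6.28 ± 0.27 in DP and 5.97 ± 0.66 in CD41 sp. Relative to DN it differed by -2.17 ± 0.49 in CD41 sp (adjusted p = 0.00289) and by -1.86 ± 0.49 in DP (adjusted p = 0.00757), the latter a call that was lost without DN 3 (adjusted p = 0.0606). In VE sp the difference was -1.07 ± 0.49 (adjusted p = 0.121), called with the block (adjusted p = 0.000695).

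Fzd10 differed in the place of DN, with 9.07, 8.93 and 9.17 in VE sp, 8.75, 8.65 and 9.29 in DP, 7.55, 7.93 and 8.17 in DN and 7.04, 6.45 and 7.97 in CD41 sp. VE sp and DP lay above every array of DN and CD41 sp, and the last 2 overlapped. CD41 sp minus VE sp was -1.90 ± 0.33 for Fzd10 (adjusted p = 0.000125), and CD41 sp minus DP was -1.74 ± 0.33 (adjusted p = 0.000828). Compared with DN it was 1.18 ± 0.33 higher in VE sp (adjusted p = 0.0118) and 1.01 ± 0.33 higher in DP (adjusted p = 0.0319). The VE sp call was lost without DN 1 (adjusted p = 0.0625), and the DP call without DN 1 or 2 or DP 1 or 3 (adjusted p from 0.0535 to 0.140). Median scaling ended both (adjusted p = 0.240 and 0.124), as did leaving out the arrays numbered 1 or 2, and the VE sp call was lost without the 5 dim arrays (adjusted p = 0.0559). Of 2 dimmer Fzd10 probes, the brighter gave 1.13 for VE sp minus DN (adjusted p = 0.143) and 0.87 for DP minus DN, and the other gave 1.29 (adjusted p = 0.0199) and 1.04, with neither DP value called. RefSeq also lists Fzd10 as an older name of Fzd2, but the probes labelled Fzd10 and Fzd2 ran in different orders here.

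The co-receptor Lrp5 had means of 6.20 ± 0.32 in VE sp, 5.88 ± 0.26 in DP, 5.50 ± 0.29 in CD41 sp and 5.32 ± 0.35 in DN (SD, n = 3). VE sp exceeded DN by 0.88 ± 0.26 (adjusted p = 0.0154), and CD41 sp minus VE sp was -0.70 ± 0.26 (adjusted p = 0.0477). Both calls were fragile, the first being lost without VE sp 2 or DN 3 (adjusted p = 0.0823 and 0.0984) and the second without any one of 5 of the 6 arrays (adjusted p from 0.0517 to 0.196). Its F test was lost without any one of 7 arrays (adjusted p from 0.0529 to 0.138). Fzd3, Fzd6 and Fzd8 were called in no comparison of the fit without the block, with group means of 4.64 to 5.34, 5.87 to 6.69 and 4.67 to 5.27.

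Of the secreted inhibitors, Dkk3, a divergent family member whose effect on Wnt signalling varies with the tissue, had 6.91, 7.76 and 7.41 in DN. It had 4.81, 4.96 and 6.35 in VE sp, 4.43, 4.40 and 4.52 in DP and 4.44, 4.60 and 4.41 in CD41 sp, with no array detected in the last 2. DN was above all others, and in VE sp the dim array 3 was the highest. Dkk3 was at least 4.99-fold higher in DN than in CD41 sp (adjusted p = 1.06e-05), at least 5.29-fold higher than in DP (adjusted p = 6.16e-06) and 3.96-fold higher than in VE sp (adjusted p = 0.000556), the last lost without the arrays numbered 2 (adjusted p = 0.0777). Frzb was detected in DN alone, at 6.17, 5.11 and 6.03, and all other non-induced arrays lay between 4.37 and 4.59. It was at least 1.66-fold higher in DN than in CD41 sp (adjusted p = 0.000154), 1.70-fold than in VE sp (adjusted p = 4.36e-05) and 1.76-fold than in DP (adjusted p = 3.55e-05). Frzb was tested only because the DN groups were complete, which favours high values there. Its window is shown because it is the only 1 of the 13 that holds both motifs, CTTTGA read from the other strand 95 bases before the start and TGGGAA 27 bases before it, both in capitals, at chr2:80447347-80447646 on the minus strand (RefSeq, GRCm38.p6).
Frzb: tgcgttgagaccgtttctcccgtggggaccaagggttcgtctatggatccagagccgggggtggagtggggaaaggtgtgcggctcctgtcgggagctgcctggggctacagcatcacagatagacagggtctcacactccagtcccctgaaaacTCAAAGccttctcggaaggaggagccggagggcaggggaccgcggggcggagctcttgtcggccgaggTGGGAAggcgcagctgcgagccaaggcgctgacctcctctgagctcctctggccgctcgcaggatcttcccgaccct

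Sfrp1 without induction averaged 7.70 ± 0.59 in DN, 6.11 ± 0.78 in VE sp, 5.52 ± 0.09 in CD41 sp and 5.36 ± 0.10 in DP (SD, n = 3). The difference from DN was -2.18 ± 0.46 in CD41 sp (adjusted p = 0.00143), -2.34 ± 0.46 in DP (adjusted p = 0.000512) and -1.59 ± 0.46 in VE sp (adjusted p = 0.0127). The VE sp call was lost without VE sp 1 or 2 or DN 3 (adjusted p from 0.0528 to 0.0735). Sfrp2 behaved differently, with its highest mean in VE sp. It averaged 6.28 ± 0.61 there, 5.59 ± 0.32 in DN, 4.93 ± 0.08 in DP and 4.80 ± 0.18 in CD41 sp. DP minus VE sp was -1.34 ± 0.29 (adjusted p = 0.00288) and CD41 sp minus VE sp was -1.48 ± 0.29 (adjusted p = 0.000434), and every VE sp array was above every array of those fractions. The DP call was lost with median scaling (adjusted p = 0.0571), with the authors' processed values (adjusted p = 0.185) and without the arrays numbered 2 or 3 (adjusted p = 0.0843 and 0.0858). Sfrp5 stayed within group means of 4.63 to 5.13 over all 8 groups and was not called.

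Inside the cell, Axin2 was highest in DN, where its non-induced levels given above did not overlap those of any other fraction. The difference from DN was -1.68 ± 0.32 in VE sp (adjusted p = 0.000469), -2.03 ± 0.32 in CD41 sp (adjusted p = 7.82e-05) and -2.38 ± 0.32 in DP (adjusted p = 7.39e-06). Tcf7 averaged 6.40 ± 0.50 in DN, 5.80 ± 0.44 in VE sp, 5.60 ± 0.23 in CD41 sp and 4.91 ± 0.08 in DP (SD, n = 3). DP minus DN was -1.49 ± 0.31 (adjusted p = 0.00117). A second Tcf7 probe gave -1.22 ± 0.39 for VE sp minus DN (adjusted p = 0.0298), where the first differed by -0.60 (adjusted p = 0.181).

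**Figure D4:**
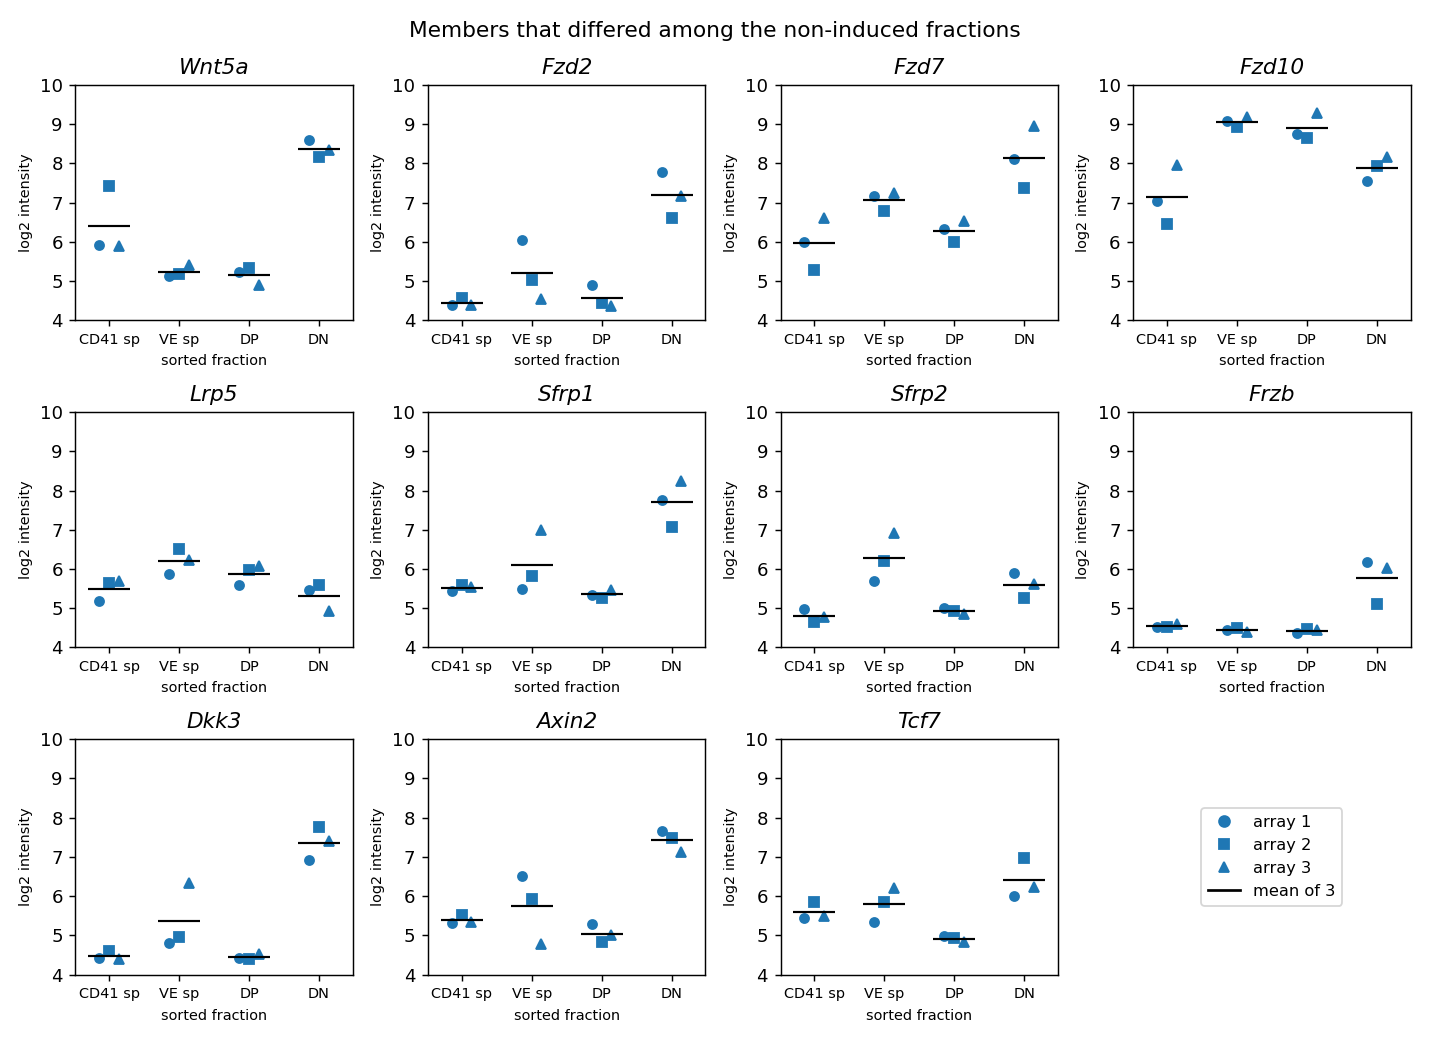
Log2 intensity of the 11 members that differed among the non-induced fractions (F test); symbols are arrays 1 (circle), 2 (square) and 3 (triangle) and bars are the means of 3. Wnt5a, Fzd2, Frzb, Dkk3 and Axin2 are highest in DN without overlap, Fzd10 is highest in VE sp and DP, and Sfrp2 has its highest mean in VE sp. Frzb was tested only because the DN groups were complete.

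Between the 3 fractions other than DN fewer members differed. DP against VE sp gave 1 call, Sfrp2 (10.2% of all genes), CD41 sp against DP gave 2, Fzd10 and Wnt5a (12.3%), and CD41 sp against VE sp gave 4, Fzd10, Sfrp2, Lrp5 and Wnt5a (28.8%). These shares of the 18 members, 5.56%, 11.1% and 22.2%, are near or below the shares of all genes. The replicate block raised the number of calls over all genes as well, so member counts are given beside it. With the block the counts were 4 for DP against VE sp, adding Dkk3, Fzd7 and Tcf7 (all lower in DP), 2 for CD41 sp against DP and 9 for CD41 sp against VE sp, adding Dkk3, Fzd2, Fzd3, Fzd7 and Fzd8 (all lower in CD41 sp), against 21.5%, 26.8% and 47.6% of all genes. Against DN the block gave 12 members in CD41 sp, adding Fzd3, Fzd10, Sfrp2 and Tcf7 (all lower), 11 in VE sp, adding Fzd7 and Wnt5b (lower) and Fzd8 (higher), and 15 in DP, adding Fzd3, Fzd6, Wnt2, Wnt4 and Wnt5b (lower) and Lrp5 (higher), against 30.3%, 43.8% and 39.4% of all genes. The F test then called 14, adding Fzd3, Fzd8 and Wnt5b, against 60.5%. The adjusted p of these added calls ran from 0.000485 to 0.0495. Among the added genes, Fzd3, Wnt2, Wnt4 and Wnt5b were tested only because a DN group was complete, which favours high values in DN. The block counts were not also made without the 6 genes complete only in DN groups. With the authors' processed values the calls against DN of Axin2, Fzd2 and Wnt5a in DP, and of Dkk3 in all fractions, held, while those of Axin2 and Fzd2 in VE sp (adjusted p = 0.0650 and 0.0538), Frzb in CD41 sp (adjusted p = 0.0807) and Fzd10 in DP (adjusted p = 0.0647) were lost. Fzd7, Sfrp1, Tcf7 and Sfrp2 lost their F test without the arrays of 1 number (adjusted p from 0.0508 to 0.196). The same held for the differences from DN of Fzd7 in CD41 sp and DP, of Sfrp1 in CD41 sp and VE sp and of Tcf7 in DP, and for CD41 sp against DP of Fzd10 and Wnt5a (adjusted p = 0.0557 and 0.0582).

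Of 16 tested transcripts known as Wnt responsive, 11 were lower than in DN in CD41 sp, 7 in VE sp and 10 in DP, against 8.62%, 12.2% and 10.9% of all genes. None was higher, and 5, 9 and 6 were not called, with list medians of -1.96, -1.06 and -1.61 beside 0.02, -0.09 and -0.04 for all genes. Cdx2, a posterior patterning factor, differed from DN by -3.80 ± 0.25 in CD41 sp, -3.23 ± 0.25 in VE sp and -4.25 ± 0.25 in DP. Sp5, a zinc-finger factor of the primitive streak, differed by -2.66 ± 0.22, -2.41 ± 0.22 and -2.66 ± 0.22, and Tnfrsf19 by -2.16 ± 0.19, -2.13 ± 0.19 and -2.20 ± 0.19. The 14 nuclear effectors ran the other way in 2 fractions, with 6 higher in VE sp and 4 higher in DP than in DN and none lower there. In CD41 sp 3 were lower and 2 higher. Of all 9591 genes, 1191 were called higher than in DN in VE sp, 1066 in DP and 671 in CD41 sp. The nuclear effector list includes Sox7, Sox17 and Sox18, and Sox18 is also on the endothelial marker list. Of the 7 secretion, agonist and co-receptor genes 3 were lower in CD41 sp, 3 in DP and none called in VE sp. Of the 6 further inhibitors 3 were lower in CD41 sp and 3 in DP, while 2 were higher in VE sp and 1 in DP. The 11 cytoplasmic transducers had 0, 3 and 1 higher in CD41 sp, VE sp and DP and none lower. The 19 non-canonical and polarity genes had 3, 2 and 1 higher and 4, 4 and 3 lower.

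Markers of other cell types differed among the fractions too. Relative to DN, 4 of 5 epithelial markers were lower in CD41 sp and all 5 in VE sp and DP, 6 of 7 mesenchyme markers and all 5 streak or pluripotency markers were lower in each of the 3 fractions, and 5, 3 and 5 of 5 endoderm markers were lower in CD41 sp, VE sp and DP. Summed mesenchyme intensity was 2323 to 3342 in DN, 594 to 898 in VE sp, 269 to 330 in CD41 sp and 207 to 271 in DP, with Pdgfrb and Tagln not detected in the last 3. Summed epithelial intensity was 4082 to 6289 in DN and 174 to 395 in the other fractions. The streak and pluripotency sum was 1730 to 2413 in DN and 123 to 303 elsewhere, with Nanog not detected outside DN. The erythroid sum was 86787 to 124849 in DN and 89391 to 112133 in CD41 sp, against 4181 to 6243 in VE sp and 8572 to 19796 in DP. Other lists ran the other way, with 8 of 8 endothelial markers higher than in DN in VE sp and in DP and 4 in CD41 sp, and with 7 of 7 megakaryocyte markers higher in CD41 sp and in DP. The part of these cell types in the order of the Wnt members was not tested.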

How the data were processed

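Each of the 24 arrays is 1 Illumina 1-colour array of a sorted fraction. The deposited tables hold non-normalized probe intensities and a detection p-value per probe and array, per the file headers; the scanner software was not named there. A table of the authors' processed intensities, made by steps not given in the sources used here, served as an alternative after values under 16 were set to 16. Their array medians were near 78.7, 59.9 and 66.9 for arrays numbered 1, 2 and 3, with little spread within a number. These values were fitted without the replicate block, so differences between the numbers stayed in the residual spread. Sample groups came from the sample labels.

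Intensities were corrected for background with neqc (normexp by the detection p-values, offset of 16), quantile normalized and log2 transformed in limma 3.58.1 (R 4.3.3). A probe was kept where some group had all 3 arrays detected (detection p under 0.05), and each gene was represented by its probe with the highest mean level among those kept. All 8 groups entered 1 lmFit and eBayes model with 16 residual degrees of freedom. 13 comparisons were tested, and p-values were Benjamini-Hochberg adjusted over all 9591 genes within each comparison, with an adjusted p under 0.05 as the call. Averages over fractions weight the 4 fractions equally. A fold of "at least" sets the bright group's mean against the higher, on each array, of the dimmest detected signal and the probe's own, where the other group had no detected array. The number of arrays limits the precision.

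After each group's mean was subtracted, arrays with the same replicate number deviated together across groups, with correlations of 0.293 to 0.777 over 84 pairs of arrays. The 168 pairs with other numbers had -0.626 to 0.0947. Subtracting the mean makes these mostly negative once the former are positive, so the second range is not separate evidence. A fit with the number as a block (14 residual degrees of freedom) was therefore run as well. The pairing comes from these values, from the numbers in the labels and from the raw intensities, which were deposited separately for each number. For some numbers the column names also shared a suffix, which was not explained.

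Members were chosen by symbol. The members and the gene lists were chosen with earlier results of these data known. All members were named, with values for those called and for the largest differences otherwise. Other alternatives were median scaling, no background correction, a detection p under 0.01, no detection filter, every passing probe, array weights, only the compared groups, and leaving out arrays. The procedure was tested on simulated data.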

Additional observations from a re-analysis of the deposited data

Results flagged for a closer look

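Wnt2 was the member whose response to induction differed among the sorted fractions, with an adjusted p of 0.00335 in the F test for a difference among the 4 fractions (limma, 3 arrays per group). Its mean change was 1.44 in DN, 0.22 in DP, 0.02 in CD41 sp and -0.20 in VE sp on the log2 scale. In VE sp all 3 pairs of arrays with the same number were lower after induction, while in DP and in DN all 3 were higher. VE sp minus DP was -0.42 and VE sp minus DN was -1.65, and these 2 differences were not tested by themselves. Wnt2 was not detected on any VE sp array and on 1 of 6 DP arrays, and it passed the detection filter through induced DN alone.

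Frzb was lower after induction in all 3 pairs of CD41 sp and higher in all 3 pairs of VE sp, with CD41 sp minus VE sp at -0.31. This difference was not tested, and no array of either fraction detected Frzb.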

How the results depend on the processing

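The 18 members carried 49 calls over the 13 comparisons. 30 were kept under every alternative other than leaving out arrays, 24 when arrays or replicate sets were left out, and 20 under both, and none took the other sign. Average induction gave 3 calls, which became 1 with median scaling, 0 with the authors' processed values and 5 with the replicate block. Induction in DN gave 2, which became 1 with median scaling, no background correction, a detection p under 0.01 or every passing probe tested, and 0 with the processed values or with only the compared groups. The interaction gave 1, and 0 with median scaling or processed values. Induction in VE sp gave 0, and 1 with the block. VE sp against DN gave 8, and 5 with processed values. DP against DN gave 9, and 15 with the block. DP against VE sp gave 1, and 0 with median scaling or processed values, 4 with the block, 3 with array weights and 2 without 5 dim arrays. CD41 sp against DP gave 2, and 1 with median scaling, processed values or only the compared groups. CD41 sp against VE sp gave 4, and 2 with median scaling or processed values and 9 with the block. The cause of these changes was not tested. The block added the calls given in the text and changed no other call. The 5 dim arrays, non-induced VE sp 3 and the induced arrays numbered 2, were chosen after seeing the data. Without them Sfrp1 rose on average by 1.44 (adjusted p = 0.000413).

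Leaving out arrays gave 0 to 3 calls for average induction, 0 to 0 in CD41 sp, VE sp and DP, 1 to 2 in DN, 0 to 1 for the interaction, 8 to 11 for the F test among fractions, 5 to 8 for CD41 sp and for VE sp against DN, 7 to 10 for DP against DN, 0 to 2 for DP against VE sp, 1 to 2 for CD41 sp against DP and 2 to 5 for CD41 sp against VE sp. A lone array left in a group is assumed to vary like the others. Median scaling shifted the median of all genes by -0.18, 0.14 and -0.12 for induction in CD41 sp, VE sp and DP, by -0.17 for VE sp against DN, and by 0.25 and 0.22 for DP and CD41 sp against VE sp. The share of called genes that were higher went from 69.1% to 80.3% for average induction and from 38.1% to 57.5% for DP against VE sp. Signal near the floor limits Wnt2, Wnt4, Wnt5b, Frzb, Fzd3, Fzd8 and Sfrp5, whose changes are compressed there.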

Other observations

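Some members that could not be tested gave a signal on part of the arrays. Wnt3a, a canonical ligand of the primitive streak, read 5.86, 5.93 and 4.73 in induced DN, with 2 arrays detected, and 4.56, 4.52 and 4.82 in non-induced DN, with none detected. Lef1, a partner of beta-catenin, read 5.66, 4.94 and 4.43 in induced DN and 5.12, 4.82 and 4.53 in non-induced DN. Array 3 was the lowest of the induced group in both genes.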
